A study of Mus musculus with 9 samples.

Results

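The Frizzled receptors *Fzd1* to *Fzd8* and the co-receptors *Lrp5* and *Lrp6*, which together receive Wnt ligands at the cell surface, were followed in bulk RNA-Seq of mouse skin after deletion of *Supt6*, the gene of the transcription elongation factor SPT6. These 10 genes, 8 Frizzled and 2 LRP, were taken by symbol from a table of 17943 genes, and all 10 were detected in every mouse and passed the filter on low counts. The libraries came from 5 control and 4 *Supt6*-KO mice, harvested on day 10 after the final injection. By the study's methods the *Supt6*-KO mice were K14-CreERT; *Supt6* fl/fl and received tamoxifen, and the controls were *Supt6* fl/fl without the Cre transgene and received corn oil. The labels call the groups wild type and *Supt6* knockdown. All mice therefore carried floxed alleles, and the effects of Cre, of tamoxifen and of the deletion cannot be told apart in this design. The K14 promoter drives Cre in the basal epithelium, so cells outside the epithelium keep an intact *Supt6* while their RNA is counted in the same library. In whole tissue, fewer cells of a type and less RNA per cell cannot be told apart either.

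The labels name ear as the tissue and the methods name dorsal skin. All 7 cartilage markers examined were present in the controls, with a summed level of 345 to 784 CPM (counts scaled to a common library size after TMM correction). *Acan*, the cartilage proteoglycan aggrecan, had the highest CPM of them over all mice. Depth was even, from 29627341 to 30967107 estimated counts per mouse. TMM factors, which correct for a few genes taking a large share of the counts, were 1.198 to 1.315 in the controls and 0.674 to 0.910 in *Supt6*-KO.

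Frizzled proteins are membrane receptors that bind Wnt through an extracellular cysteine-rich domain. In the β-catenin branch a Wnt protein bridges a Frizzled and LRP5 or LRP6, Dishevelled is recruited to the Frizzled tail, and the destruction complex that removes β-catenin is held at the membrane. Some Frizzled members, with FZD3 and FZD6 the best known, also act with Celsr and Vangl proteins in planar cell polarity, which aligns hairs across the skin. Wnt signaling drives formation of hair follicles and their entry into growth.

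The contact for Dishevelled is a short motif just inside the membrane, lysine, threonine, any 3 residues and tryptophan. It was found in frame exactly 1 time in the reading frame of each of the 8 Frizzled genes, in GENCODE M21 transcripts on GRCm38. The coding stretches are shown because they show what the family shares at its signaling site and how its closest relatives group. Each is printed 5′ to 3′ on the coding strand, with the lysine, threonine and tryptophan codons in capitals.
*Fzd1*, chr5:4755706-4755723, reverse strand: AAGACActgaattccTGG
*Fzd2*, chr11:102606373-102606390, forward strand: AAGACActgcactcgTGG
*Fzd7*, chr1:59484607-59484624, forward strand: AAGACCctgcagtcaTGG
*Fzd4*, chr7:89408241-89408258, forward strand: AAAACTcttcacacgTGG
*Fzd5*, chr1:64735011-64735028, reverse strand: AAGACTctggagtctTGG
*Fzd3*, chr14:65212107-65212124, reverse strand: AAGACAtgctttgaaTGG
*Fzd6*, chr15:39033949-39033966, forward strand: AAGACGtgcacagaaTGG
The tail behind the motif separates the subgroups. *Fzd1*, *Fzd2* and *Fzd7* each have 17 codons after it, *Fzd4* has 33, *Fzd5* has 55 and *Fzd8* has 74. *Fzd3* and *Fzd6* have the longest tails, of 159 and 206 codons. The stretch of *Fzd8* is not printed here.

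*Supt6*, the deleted gene, was read first. It measured 74.5, 56.6, 63.6, 91.1 and 96.7 CPM in the 5 controls and 28.6, 24.1, 21.9 and 28.4 CPM in the 4 *Supt6*-KO mice. Every *Supt6*-KO mouse lay below every control, with 33.7% of the control mean left in whole skin (edgeR adjusted p = 1.3e-05, Benjamini-Hochberg over all genes, from its quasi-likelihood test). The log2 fold change was -1.57, against -0.80 with a correction for transcript length and -2.26 with library totals. *Supt6* overlaps *Sdf2*, which is in the count table, on the other strand. By the study's design the loxP sites flank only some of the 37 *Supt6* exons. Reads from the other exons of a deleted allele would be counted too, so the level left does not measure intact *Supt6* RNA.

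Of the 10 receptor genes, 8 were lower in *Supt6*-KO skin, *Fzd6* was higher and *Fzd3* passed in neither direction at an adjusted p under 0.05. Both LRP co-receptors fell, to 16% and 25.2% of the control mean. Among the Frizzled genes the level left in *Supt6*-KO ranged from 16% for *Fzd4* to 60.5% for *Fzd1* in the 6 that fell, and *Fzd6* stood at 136%. Across all 16426 genes tested, 36.8% were lower and 34.1% higher by the same rule, 71.0% in either direction, and the median log2 fold change was -0.07 against -1.48 for the receptor genes. With a change of at least 2-fold also required, 6 members were lower and none higher, against 24.9% lower and 20.9% higher over all genes. The groups did not overlap for 9 members, 8 with *Supt6*-KO below (31.8% of all genes tested) and *Fzd6* with *Supt6*-KO above (28.9% of all genes tested).

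**Figure D1:**
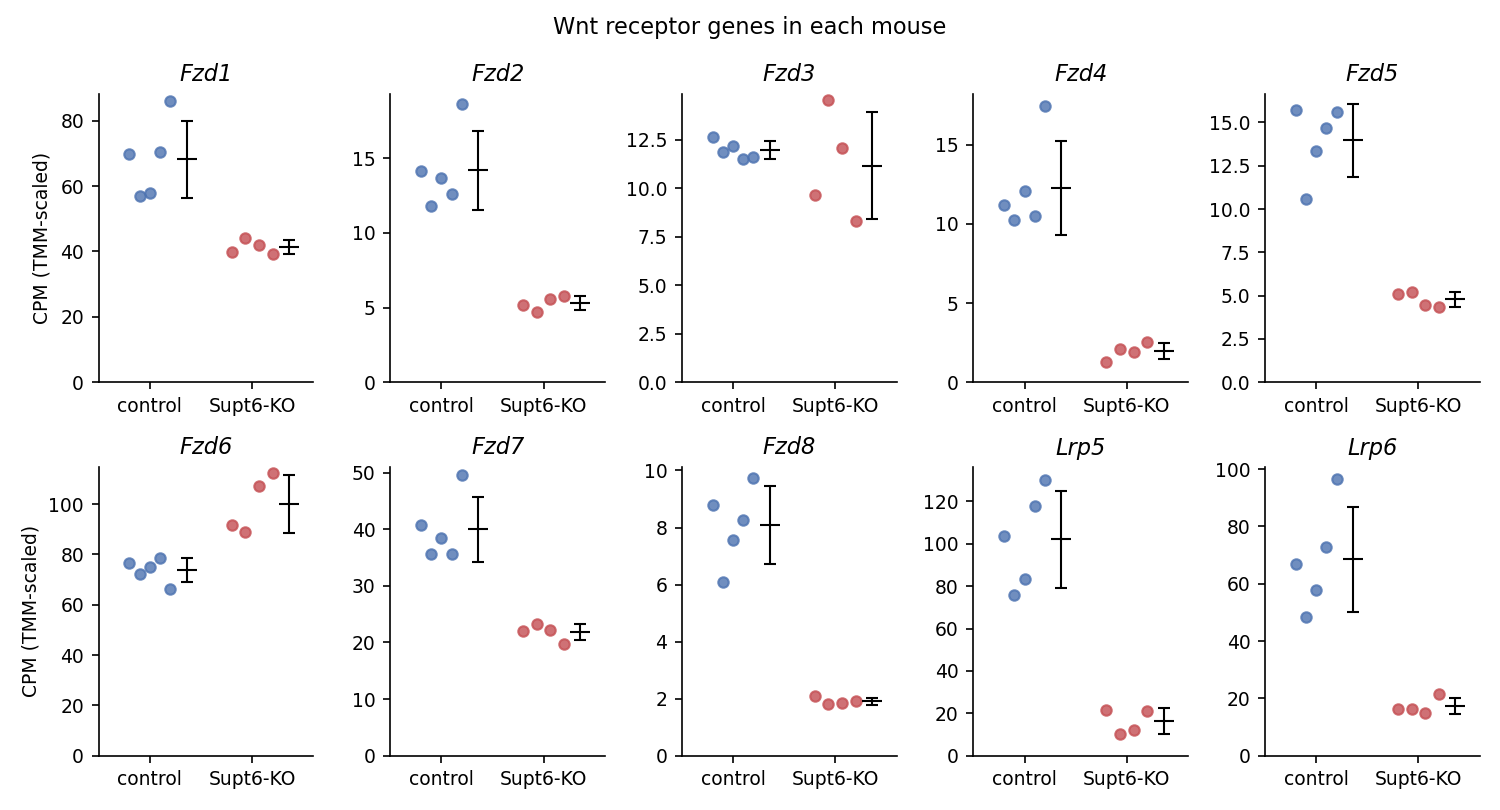
CPM of each of the 10 receptor genes, 1 panel per gene with its own axis from 0 and 1 point per mouse (blue, 5 controls; red, 4 *Supt6*-KO), with the group mean and SD in black. The *Supt6*-KO points lie below all control points for *Lrp5*, *Lrp6* and 6 Frizzled genes, above them for *Fzd6* and among them for *Fzd3*.

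*Lrp5*, a co-receptor best known for its role in bone mass and retinal vessels, had the highest mean TPM of the 10 genes in control skin. It lies on chr19:3584828-3686556 (GRCm38, reverse strand) and has 23 exons. The controls held 104, 75.8, 83.3, 118 and 130.3 CPM and the *Supt6*-KO mice 21.6, 10.3, 12.3 and 21.3 CPM. The groups were far apart, and within *Supt6*-KO, mice 1 and 4 lay above mice 2 and 3. The log2 fold change was -2.64 (standard error, SE, 0.26, edgeR adjusted p = 5.6e-06).
*Lrp6*, the co-receptor that most tissues need for β-catenin signaling, lies on chr6:134446476-134566913 (reverse strand) and also has 23 exons. It measured 66.9, 48.3, 57.8, 72.9 and 96.6 CPM in the controls and 16.4, 16.4, 14.9 and 21.4 CPM in *Supt6*-KO. All *Supt6*-KO mice again lay below all controls, and mouse 4 was the highest of *Supt6*-KO. Its log2 fold change was -1.99 (SE 0.20, edgeR adjusted p = 6.4e-06).

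*Fzd4* encodes the receptor for Norrin as well as for Wnt proteins and is best known from retinal vessels. Its estimated fall was the largest of the Frizzled genes. The controls read 11.2, 10.2, 12.1, 10.5 and 17.4 CPM against 1.3, 2.11, 1.92 and 2.55 CPM in *Supt6*-KO, a log2 fold change of -2.64 (SE 0.24, edgeR adjusted p = 3.5e-06). Control 5 stood above the other controls, which lay close together, and without it the log2 fold change was -2.48. *Fzd5* and *Fzd8* form a subfamily of close relatives that signals through β-catenin. *Fzd8* measured 8.80, 6.11, 7.56, 8.28 and 9.73 CPM in the controls and 2.09, 1.82, 1.83 and 1.90 CPM in *Supt6*-KO. The *Supt6*-KO mice were nearly level with each other and far below the lowest control. The log2 fold change of *Fzd8* was -2.08 (SE 0.18, edgeR adjusted p = 2.5e-06). For *Fzd5* the controls gave 15.7, 10.6, 13.3, 14.7 and 15.6 CPM and the *Supt6*-KO mice 5.10, 5.23, 4.48 and 4.35 CPM. Its log2 fold change was smaller, -1.55 (SE 0.16, edgeR adjusted p = 7.4e-06).

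*Fzd1*, *Fzd2* and *Fzd7*, a subfamily of single-exon genes, fell by 1.42, 0.88 and 0.73 on the log2 scale for *Fzd2*, *Fzd7* and *Fzd1*. *Fzd2* measured 14.1, 11.8, 13.7, 12.6 and 18.6 CPM in the controls and 5.14, 4.70, 5.58 and 5.75 CPM in *Supt6*-KO. The *Supt6*-KO values lay close to each other, below all controls. The log2 fold change was -1.42 (SE 0.17, edgeR adjusted p = 1.7e-05). *Fzd7*, a receptor of epithelial stem cells in several tissues, read 40.8, 35.5, 38.5, 35.6 and 49.5 CPM in the controls and 22.1, 23.2, 22.1 and 19.8 CPM in *Supt6*-KO, a log2 fold change of -0.88 (SE 0.13, edgeR adjusted p = 7.8e-05). *Fzd1* measured 69.8, 57.1, 57.7, 70.6 and 86.0 CPM in the controls and 39.9, 44.0, 41.9 and 39.3 CPM in *Supt6*-KO. It kept the largest share of its control level among the genes that fell, and the groups still did not overlap. The log2 fold change was -0.73 (SE 0.13, edgeR adjusted p = 0.00051).

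*Fzd3* and *Fzd6* make up the subfamily known for planar cell polarity: in mice *Fzd6* orients hair and *Fzd3* guides axons. *Fzd6* measured 76.6, 72.4, 75.2, 78.6 and 66.1 CPM in the controls and 91.6, 88.8, 107 and 112 CPM in *Supt6*-KO. All *Supt6*-KO mice lay above all controls, with a log2 fold change of 0.44 (SE 0.11, edgeR adjusted p = 0.0041). This call rests on the scaling: with library totals in place of TMM factors, which shifts the median of all genes to -0.76, *Fzd6* stood at -0.24 (edgeR adjusted p = 0.169). *Fzd3* read 12.6, 11.9, 12.2, 11.5 and 11.6 CPM in the controls and 9.65, 14.6, 12.1 and 8.33 CPM in *Supt6*-KO. The controls were almost level, whereas *Supt6*-KO mice fell on both sides of them, with mouse 2 above and mice 1 and 4 below. The log2 fold change of *Fzd3* was -0.10 (SE 0.17, edgeR adjusted p = 0.59), and without *Supt6*-KO 4 it was 0.01. With library totals *Fzd3* passed as lower, at -0.83 (edgeR adjusted p = 0.000276).

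**Figure D2:**
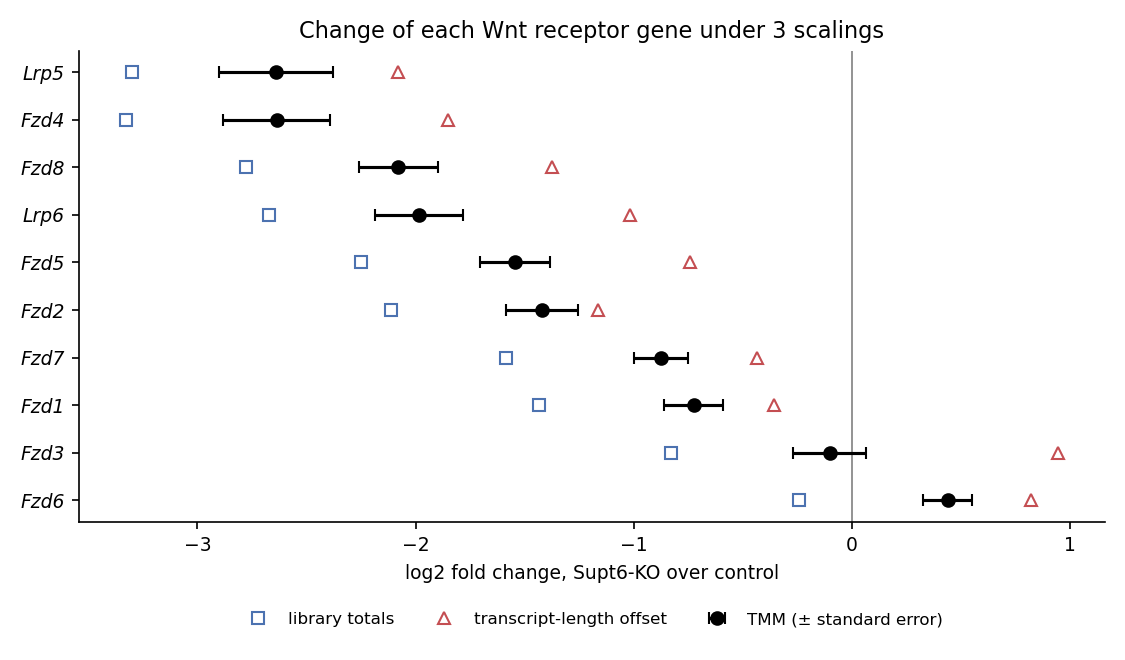
Log2 fold change of each receptor gene, *Supt6*-KO against control, with TMM factors (black points, bars of 1 standard error), library totals (squares) and the transcript length correction (triangles). *Lrp5*, *Lrp6* and 6 Frizzled genes lie below 0 under all 3, *Fzd3* lies above 0 only with the length correction, and *Fzd6* lies below 0 only with library totals.

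The genes of the family differ in build, and their fold changes depended on a correction for transcript length. *Fzd1*, *Fzd2*, *Fzd7* and *Fzd8* have a single exon and *Fzd4* and *Fzd5* have 2, whereas *Fzd3* and *Fzd6* have 7 and the LRP genes 23. The *Fzd3* transcript, at 12734 bases, is the longest of the 10, and that of *Fzd2*, at 3663 bases, is the shortest. When a trend of the fold change on transcript length was removed in each sample, the members that fell still did so, with log2 fold changes of -2.08 for *Lrp5*, -1.02 for *Lrp6*, -1.85 for *Fzd4*, -1.37 for *Fzd8*, -1.16 for *Fzd2*, -0.74 for *Fzd5*, -0.43 for *Fzd7* and -0.36 for *Fzd1*. The last of these was nearest the threshold (adjusted p = 0.0175 in edgeR). *Fzd6* rose to 0.82 and *Fzd3* turned to 0.95 (adjusted p = 0.00155 in edgeR), so *Fzd3* has no settled direction in these data. A correction for gene span moved the single-exon genes the other way, to -1.27 for *Fzd1*, -1.39 for *Fzd7*, -2.02 for *Fzd2* and -2.71 for *Fzd8*. It gave -3.09 for *Fzd4*, -1.93 for *Fzd5*, -2.05 for *Lrp5*, -1.31 for *Lrp6*, 0.47 for *Fzd6* and 0.29 for *Fzd3*. *Fzd3*, *Fzd5* and *Fzd6* overlap annotated genes on the other strand, and *Fzd3* also overlaps *Gm27263* on its own strand. None of these overlapping genes is in the count table. Whether the counting used strand is not given in the sources used here. Reads from either strand therefore cannot be told apart for *Fzd3*, *Fzd5*, *Fzd6* or *Supt6*.

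Levels between receptor genes were compared only per length, as TPM (length-normalised transcript abundance on a fixed total). The authors deposited TPM for the 5 controls and *Supt6*-KO 4. In control skin the order was *Lrp5* (34.2 ± 11.8 TPM, SD, n = 5), *Fzd6* (31.1 ± 3.26), *Fzd1* (27.2 ± 8.24), *Fzd7* (14.3 ± 3.84), *Lrp6* (12.3 ± 4.92), *Fzd2* (6.92 ± 2.19), *Fzd4* (5.92 ± 2.20), *Fzd8* (4.31 ± 1.23), *Fzd5* (3.43 ± 0.874) and *Fzd3* (1.53 ± 0.175). The ranges of neighbours in this order overlapped, except that *Fzd5* lay above *Fzd3*. Compared within each mouse, the order of neighbours from *Lrp6* down to *Fzd3*, and *Fzd1* over *Fzd7*, held in 5 of 5 controls. *Fzd6* exceeded *Fzd1* and *Fzd7* exceeded *Lrp6* in 4 of 5, and *Lrp5* exceeded *Fzd6* in 3 of 5. *Fzd9* and *Fzd10*, Frizzled genes outside the set of 10, stood at 40.8 ± 9.92 and 26.8 ± 2.42 TPM, and *Fzd9* exceeded *Fzd6* in 5 of 5 controls.

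The make-up of the Frizzled pool was followed by dividing each count by the relative length that the controls' counts and TPM imply, and by taking each gene's share of all 10 Frizzled genes within a library, *Fzd9* and *Fzd10* included. Such a share does not depend on the scaling between libraries. The same length per gene was used in every library, so the dependence of the fold changes on transcript length is not removed. *Fzd6* held 19.3, 19.9, 21.4, 21.03 and 15.6% in the controls and 38.5, 39.4, 45.6 and 45.5% in *Supt6*-KO. It was behind *Fzd9* in the controls and ahead of every other Frizzled gene in *Supt6*-KO, with means of 19.5 ± 2.31% (SD, n = 5) and 42.2 ± 3.82% (SD, n = 4). *Fzd9* went from 25.0 ± 1.98% to 10.7 ± 2.28%. *Fzd1* held 16.5 ± 1.72% and 16.2 ± 1.45% and *Fzd7* 8.75 ± 0.741% and 7.74 ± 0.798%, and in both the groups overlapped. *Fzd2* went from 4.21 ± 0.528% to 2.54 ± 0.154%, *Fzd8* from 2.63 ± 0.308% to 1.01 ± 0.0614% and *Fzd5* from 2.10 ± 0.247% to 1.17 ± 0.143%, each without overlap. *Fzd4* went from 3.58 ± 0.648% to 0.930 ± 0.236%, the smallest mean share in *Supt6*-KO, although *Fzd8* was lower than *Fzd4* in *Supt6*-KO 2 and *Fzd3*, *Fzd5* and *Fzd8* were in *Supt6*-KO 4. *Fzd3* had the smallest share in the controls, and its shares of 0.954 ± 0.0809% and 1.44 ± 0.409% overlapped. Shares must sum to the whole, so a higher share of 1 gene lowers the shares of the rest. Among *Fzd1* to *Fzd8* alone, *Fzd6* held 33.5 ± 4.24% and 57.6 ± 3.60%, and there the groups of *Fzd1* and *Fzd7* did not overlap, with *Supt6*-KO below.

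**Figure D3:**
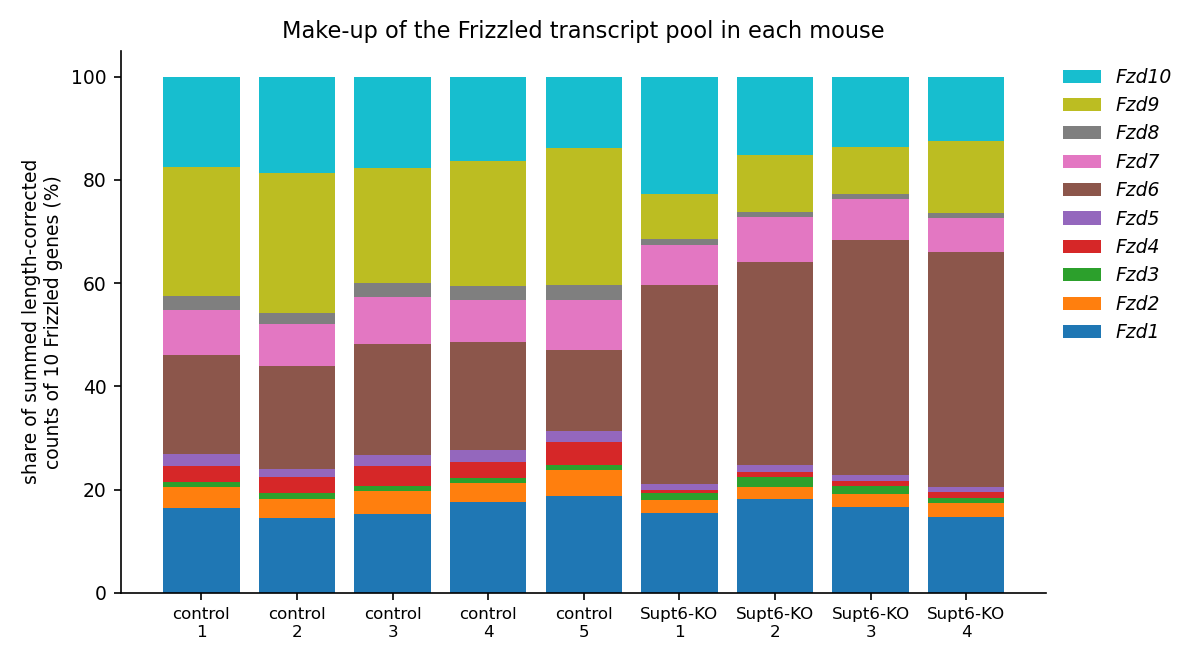
Length-corrected share of each of the 10 Frizzled genes, *Fzd9* and *Fzd10* included, in their summed signal, in percent, as 1 stacked bar for each of the 5 control and 4 *Supt6*-KO mice. *Fzd6* takes 15.6 to 21.4% in the controls and 38.5 to 45.6% in *Supt6*-KO, and *Fzd4* takes 3.14 to 4.604% and 0.609 to 1.15%.

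In the LRP pair the same share of *Lrp5* was 73.7 ± 1.44% in the controls and 62.6 ± 7.21% in *Supt6*-KO, so *Lrp5* stayed the larger part. In counts, the log2 ratio of *Lrp6* to *Lrp5* was -0.64, -0.65, -0.53, -0.69 and -0.43 in the controls and -0.40, 0.67, 0.28 and 0.01 in *Supt6*-KO. All *Supt6*-KO mice lay above the controls, although *Supt6*-KO 1 was close to control 5. The mean difference was 0.73 (p = 0.0159, adjusted p = 0.0238 over 6 ratios, two-sided exact permutation test, n = 5 and 4), and 0.0159 is the smallest p that 5 mice against 4 allow. Within a library such a ratio is free of the scaling between libraries but not of transcript length.
The other ratios compare close relatives and were tested likewise. *Fzd5* over *Fzd8* rose by 0.52 and *Fzd1* over *Fzd2* by 0.69 on the log2 scale, and *Fzd2* over *Fzd7* fell by 0.54, each with p = 0.0159 (adjusted p = 0.0238, exact permutation test) and without overlap of the groups. *Fzd3* over *Fzd6* was -0.57 (p = 0.0635, adjusted p = 0.0762, exact permutation test) and *Fzd1* over *Fzd7* was 0.16 (p = 0.0952, adjusted p = 0.0952, exact permutation test), both with overlapping groups. Without *Supt6*-KO 2, *Fzd3* over *Fzd6* was -0.76 (p = 0.0357, exact permutation test), and without control 4, *Fzd1* over *Fzd7* was 0.21 (p = 0.0286, exact permutation test). The direction for *Fzd3* over *Fzd6* depends on transcript length. With the length correction the log2 fold change of *Fzd3* (0.95) exceeded that of *Fzd6* (0.82), but not with the span correction (0.29 against 0.47).

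**Figure D4:**
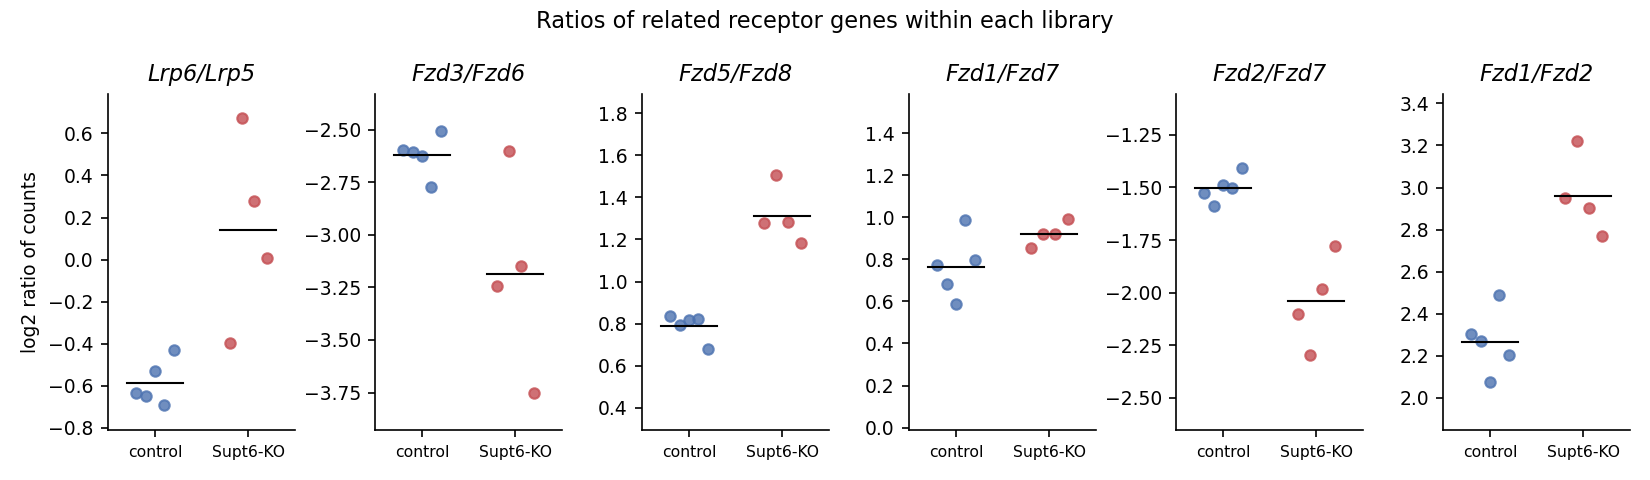
Log2 ratio of 2 related receptor genes within each library, for 6 pairs, with 1 point per mouse. *Supt6*-KO lies above the controls for *Lrp6* over *Lrp5*, *Fzd5* over *Fzd8* and *Fzd1* over *Fzd2*, below for *Fzd2* over *Fzd7*, and overlaps them for the other 2 pairs.

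Control 5 was the highest control for 7 of the 10 members and control 2 the lowest for 8. Among *Supt6*-KO, mouse 2 and mouse 4 were each the highest for 4 members and the lowest for 4. The 10 receptor genes summed to 413 ± 62.0 CPM in the controls and 222 ± 11.6 CPM in *Supt6*-KO, or 53.7%, which counts longer transcripts more.

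RefSeq windows of 250 bases before the start site (GRCm38.p6) were found for 4 of the 10 members. Those of *Fzd4* and *Fzd1*, with the largest and the smallest estimated fall of the Frizzled members that fell, are shown for the contrast between them, with GC boxes (GGGCGG, on either strand as CCGCCC) in capitals.
*Fzd4*, chr7:89404116-89404365, forward strand: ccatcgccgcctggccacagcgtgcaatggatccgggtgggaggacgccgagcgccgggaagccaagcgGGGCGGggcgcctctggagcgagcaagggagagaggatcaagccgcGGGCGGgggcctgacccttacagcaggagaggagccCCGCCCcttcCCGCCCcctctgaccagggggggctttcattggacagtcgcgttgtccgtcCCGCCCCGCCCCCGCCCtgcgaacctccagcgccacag
*Fzd1*, chr5:4758217-4758466, reverse strand: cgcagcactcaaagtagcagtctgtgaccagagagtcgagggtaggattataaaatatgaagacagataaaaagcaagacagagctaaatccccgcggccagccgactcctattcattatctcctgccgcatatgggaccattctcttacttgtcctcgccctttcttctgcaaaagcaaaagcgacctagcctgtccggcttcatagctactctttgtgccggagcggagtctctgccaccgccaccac
The 2 windows sit differently to the GENCODE transcripts: the last 11 bases of the *Fzd4* window lie within its transcript, whereas the *Fzd1* window lies wholly upstream of the start of its transcript, at 4758035. The *Fzd4* window is 72.8% GC and holds 7 GC boxes, counting overlaps, and that of *Fzd1* is 51.2% GC and holds none. *Fzd5* had 9 and *Fzd7* had 6 GC boxes. Of all 32851 windows, 32.7% hold at least 1 and the median GC content is 52.4%. The TATA box letters TATAAA or TTTATA occur 1 time in the *Fzd1* window and in 12.4% of all windows, and the TCF/LEF letters CTTTGAT or ATCAAAG, in 3.21% of all windows, occur in none of the 4.

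Around the receptors, 8 lists of Wnt pathway genes were read in the same fit, in which 36.8% of all genes tested were lower and 34.1% higher. Of 14 other Frizzled-class and co-receptor genes, 10 were lower, 2 higher and 2 neither. *Fzd9* went from 45.5 ± 6.09 to 12.1 ± 2.89 CPM (SD over 5 and 4 mice, log2 fold change -1.91) and *Fzd10* from 45.3 ± 3.22 to 26.9 ± 7.67 CPM (-0.75). The tyrosine kinase co-receptors *Musk*, *Ror2* and *Ptk7* fell, by 2.29, 1.52 and 0.51 on the log2 scale, and *Ryk* stood at -0.02 (adjusted p = 0.90 in edgeR). The call of *Ptk7* was lost with the transcript length correction (-0.14, edgeR adjusted p = 0.155) and the span correction (-0.16), and that of *Ror2* with the span correction (-0.68, edgeR adjusted p = 0.0716). *Ryk* passed as lower with library totals (-0.70) and as higher with the span correction (0.38). *Sdc1*, the cell surface heparan sulfate proteoglycan syndecan-1, rose by 0.58, which turned to -0.07 with library totals and was 0.36 without *Supt6*-KO 4. Of the genes that work with FZD4, *Ndp*, its ligand Norrin, was at -0.42 (adjusted p = 0.23 in edgeR) and *Tspan12*, the tetraspanin that enhances Norrin signaling, at 0.25 (adjusted p = 0.28 in edgeR), and neither passed. *Ndp* passed as lower with library totals (-1.13) and *Tspan12* as higher with the span correction (0.86). *Reck*, the WNT7 receptor partner, fell by 1.90.

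Frizzled proteins are taken off the surface by ubiquitin ligases that R-spondins hold back. Of 14 turnover and R-spondin genes 11 were lower and none higher, with a median log2 fold change of -1.29. *Znrf3* and *Rnf43*, the ligases, fell by 1.71 and 1.19, and the R-spondin receptors *Lgr6* and *Lgr5* fell by 2.17 and 1.54. These falls were smaller with the transcript length and span corrections, but each still passed. The values were -0.96 and -0.92 for *Znrf3*, -0.81 and -0.79 for *Rnf43*, -1.37 and -1.48 for *Lgr6*, and -1.05 and -0.82 for *Lgr5*. *Lgr4* fell by 0.35, but it was 0.19 with the transcript length correction and 0.20 with the span correction, and without control 1 its call was lost (-0.31, edgeR adjusted p = 0.0503). In the list of 6 chaperone and ligand export genes, *Porcn*, which lipidates Wnt, rose by 0.83 and *Notum*, which removes that lipid, fell by 1.46. The groups of *Porcn* overlapped, and its call was lost with library totals (0.09, edgeR adjusted p = 0.661) and with the transcript length correction (0.48, edgeR adjusted p = 0.0557). Of the 6, 2 were lower and 2 higher, with a median of -0.09.

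Dishevelled genes, whose products bind the motif printed above, changed unequally. *Dvl3* fell by 2.3 and *Dvl2* by 1.44, whereas *Dvl1* rose by 0.57, a rise that turned to -0.15 with library totals. *Csnk1a1*, casein kinase 1 alpha, rose by 1.00, a call that was lost with library totals (0.31, edgeR adjusted p = 0.0858). The list of 12 held 6 lower and 3 higher genes, with a median of -0.34. Of 12 planar cell polarity genes 8 were lower and none higher, and *Celsr1*, the partner of *Fzd6* in hair orientation, fell by 2.76.
Of 14 Wnt target genes tested, out of 15 listed, 12 were lower and none higher, with a median of -1.50. *Axin2*, the widely used read-out of β-catenin signaling, went from 38.1 ± 4.49 to 10.8 ± 1.20 CPM (log2 fold change -1.81, edgeR adjusted p = 1e-06), and *Lef1*, a transcription factor that partners β-catenin, fell by 3.51. Of 16 Wnt ligand genes tested, out of 19 listed, 7 were lower and 3 higher, with *Wnt10b* falling by 2.20 and *Wnt16* rising by 1.35. The groups of *Wnt16* overlapped, and its call was lost with library totals (0.60, edgeR adjusted p = 0.141) and with the transcript length correction (0.86, edgeR adjusted p = 0.0596). Some genes stand in more than 1 list.

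**Figure D5:**
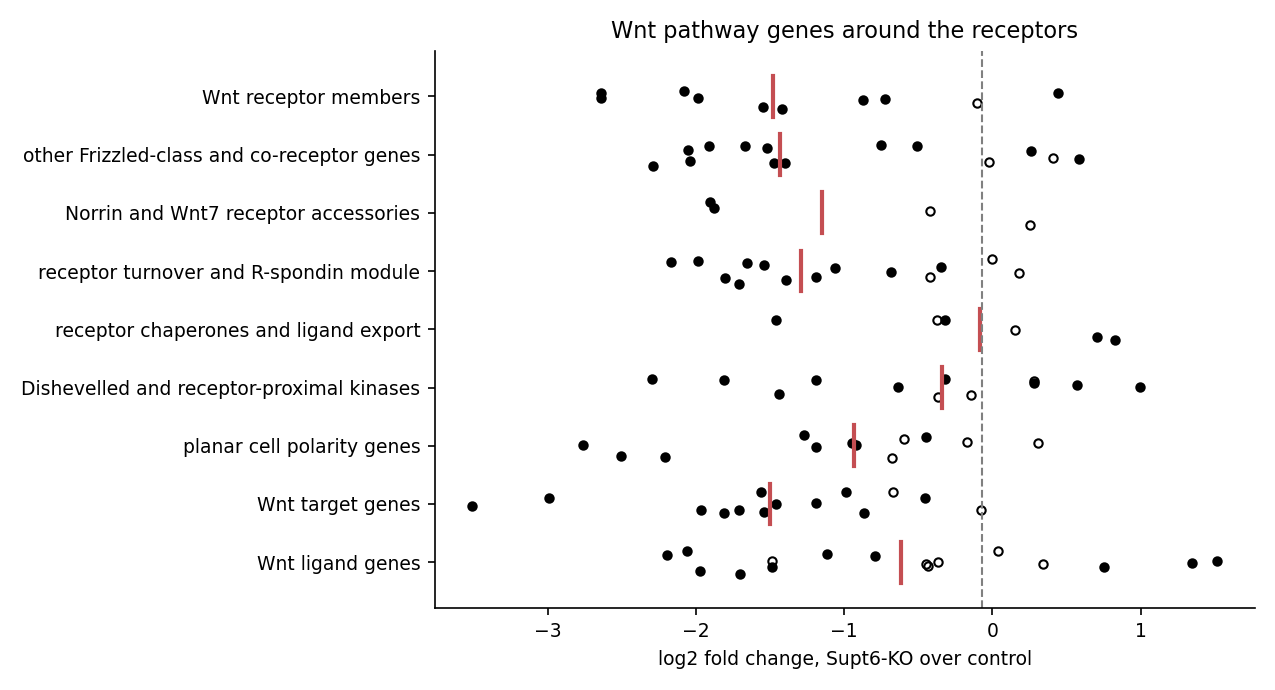
Log2 fold changes of the genes tested in the receptor set and in each of 8 other Wnt pathway lists, 1 point per gene (filled, adjusted p under 0.05; open, not) with the list median as a red bar and the median of all genes, -0.07, as a dashed line. The medians run from -1.50 for the Wnt target genes to -0.09 for the chaperone and export genes.

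Summed levels differed between the group means for most lists of cell type markers, though hardly for adipocyte markers. The summed level of each list is therefore given beside the receptors. The counts of markers called are to be read against the 36.8% of all genes tested that were lower and the 34.1% that were higher. The gene named as leading a list, or as its most abundant, had the highest CPM over all mice, without a length correction. Of 6 hair follicle stem cell markers, of which *Cd34* was the most abundant, 6 were lower with TMM factors, and the sum was 225, 196, 156, 210.1 and 253 CPM in the controls and 113, 109, 104 and 102 CPM in *Supt6*-KO. *Cd34* passed narrowly, at -0.35 with overlapping groups (edgeR adjusted p = 0.0469), and its call was lost with DESeq2 (adjusted p = 0.0924), with RLE factors (edgeR adjusted p = 0.0921) and with the replicate block (edgeR adjusted p = 0.0812). Hair shaft and inner root sheath markers, led by *Krt71*, were lower for 8 of 8 genes in the table. Their sums of 1690.4, 147, 598, 327 and 2.19 CPM in the controls and 1.92, 2.06, 2.33 and 1.40 CPM in *Supt6*-KO put control 5 within the *Supt6*-KO range and the other controls far above it. Control 5 was the highest control for 7 receptor genes.
In blood endothelium, where *Fzd4* is well known, 5 of 7 markers were lower and 1 higher. Their sum, with *Pecam1* the most abundant, was 97.2, 85.1, 61.5, 104 and 130.4 CPM in the controls and 59.7, 60.4, 68.1 and 53.0 CPM in *Supt6*-KO, and the groups overlapped. Dermal fibroblast markers, led by *Col3a1*, had 4 of 7 lower, with sums of 4913, 4431, 3105, 6099 and 10759 CPM in the controls and 2587, 3123, 3954 and 2081 CPM in *Supt6*-KO. Control 5 was again the highest. Cartilage markers were lower for 7 of 7, with 461, 379, 345, 530.3 and 784 CPM in the controls and 64.4, 76.7, 68.7 and 73.9 CPM in *Supt6*-KO. Schwann cell markers, led by *Mbp*, were lower for 5 of 5 and went from 332, 325, 267, 353 and 380.5 CPM to 74.0, 62.4, 74.0 and 72.5 CPM. In both lists the groups were far apart.
Basal keratinocyte markers, from the cells that K14 marks, had 6 of 7 lower. Their sums were 11714, 12146, 11643, 13313 and 11840.3 CPM in the controls and 8402, 5801, 7014 and 14105 CPM in *Supt6*-KO. *Krt14* had the highest CPM of the list over all mice, although *Krt5* was above it in every control (control means 4631 and 3379 CPM). The log2 fold change of *Krt14* was 0.66 (edgeR adjusted p = 0.063). It passed as higher with DESeq2 (adjusted p = 0.0152) and with RLE factors (0.72, edgeR adjusted p = 0.0456). *Krt14* stood at 0.21 without *Supt6*-KO 4 and at 0.23 and 0.18 with the length and span corrections. In the summed level of the list, *Supt6*-KO 4 stood above the controls and the other *Supt6*-KO mice below. For *Krt14* alone, *Supt6*-KO 1, 3 and 4 lay above all controls and *Supt6*-KO 2 among them. The remaining lists are given as group means. Skeletal muscle markers, led by *Acta1*, had 5 of 6 lower (3744 to 952 CPM), lymphatic endothelial markers 3 of 4 lower (69.1 to 53.0 CPM), pericyte and smooth muscle markers 3 of 5 lower (119 to 86.1 CPM), adipocyte markers 4 of 6 lower (328 to 331 CPM), T cell markers 3 of 5 lower and 1 higher (28.4 to 7.26 CPM) and sebaceous gland markers 3 of 5 lower and 1 higher (621 to 541 CPM). Differentiated keratinocyte markers, led by *Krt10*, had 3 of 6 higher and 1 lower (18294 to 30843 CPM), melanocyte markers 5 of 5 higher (54.6 to 145 CPM), macrophage markers 5 of 6 higher and 1 lower (125 to 229 CPM), and neutrophil markers, led by *S100a9*, 6 of 7 higher and 1 lower (27.6 to 4676 CPM). No marker in the table was at 0 in every mouse of a group. The part of these cell types in the receptor results was not tested.

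Among 13564 genes with a mean of at least 1 CPM, those with a pattern most like *Fzd4* over the 9 mice were *Kcnq5*, *Lrtm1*, *Luzp2*, *Mogat1* and *Arpp21*, with Pearson r of log2 CPM from 0.995 to 0.997. For *Lrp6* they included *C1qtnf1*, *Helz*, *Map4* and *Gbf1*, with r near 0.997. These values share the contrast between the 2 groups, and 2930 genes had r above 0.9 with *Fzd4* and 3319 with *Lrp6*.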

How the data were processed

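Whole skin RNA of 9 mice was sequenced in pairs of reads and aligned by the authors to mm10 with Bowtie2 2.3.4.3, and RSEM 1.3.1 (versions from the submitters' processing notes) gave the deposited expected counts per gene, not normalized between mice, of which 9.00% are not whole, and these were rounded for testing. The authors also deposited TPM for 6 of the 9 libraries, used here for levels between genes only. Of 17943 genes, 17850 were matched to a reference gene and 93 were not.
Groups came from the sample titles. The groups were compared with edgeR 4.0.16 (R 4.3.3) by its quasi-likelihood test with TMM factors, no covariates and a minimum sum of 10 counts, and Benjamini-Hochberg adjustment over 16426 genes. A standard error is the absolute log2 fold change divided by the square root of the test's F. Ratios used counts plus 0.5. Alternatives were DESeq2 1.42.0, other scalings and filters, a replicate block, length and span offsets and each mouse left out. The tests were tried on simulated counts first.
The 10 members and all lists were chosen with earlier results of these data known. Named were all members, a listed set of pathway genes, and per list the largest rise and fall past the threshold with a mean of 1 CPM or more in whichever group was higher. The edgeR p-values set the group difference against a spread between these mice that is estimated with information from all genes. The exact p-values compare it with the allowed rearrangements of the group labels. The result for 1 gene with a pattern like *Lrp6* is not reported here.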

Additional observations from a re-analysis of the deposited data

Results flagged for a closer look

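Among 120 groups of 4 or 5 mice examined for a value far from the others, 11 had one, where chance alone gives about 6. In receptors, *Fzd4* was 17.44 CPM in control 5 (control median 11.21), and the log2 ratio of *Fzd5* to *Fzd8* was 0.6793 in control 5 (control median 0.819). Control 5 also stood apart for *Reck*, with 71.26 CPM (median 33.16), for *Sdc1*, with 429.6 CPM (median 545.2), and for the summed sebaceous gland markers, with 522.5 CPM (median 643.6). *Lef1* was 7.836 CPM in control 1 (median 3.233) and *Porcn* 4.291 CPM in control 3 (median 5.777). In *Supt6*-KO 4, *Notum* was 0.3592 CPM (median 0.8663), *Wnt10b* was 0.467 CPM (median 1.417) and the summed lymphatic endothelial markers were 57.62 CPM (median 51.7). The summed Schwann cell markers were 62.42 CPM in *Supt6*-KO 2 (median 73.21).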

How the results depend on the processing

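The 8 receptor genes that fell kept their direction and stayed past the threshold in all 19 alternatives run for each. With library totals, 2771 genes were higher against 5608 (23.6% of the calls against 48.1%) and 8970 lower against 6050, 9 receptor genes were lower and 0 higher and *Fzd6* was at -0.24. With at least a 2-fold change, 3427 genes and 0 receptor genes were higher. With the transcript length correction 2 receptor genes were higher, *Fzd3* being at 0.95. *Fzd3* was at 0.29 with the span correction and ran from -0.27 to 0.014 with each mouse left out, the highest without *Supt6*-KO 4. With each mouse left out, 5669 to 6392 genes were lower and 5305 to 5729 higher, and 8 receptor genes were lower and 1 higher each time. The ratio of *Fzd3* to *Fzd6* ran from -0.76 to -0.38 and that of *Fzd1* to *Fzd7* from 0.11 to 0.21. Same-numbered mice of the 2 groups correlated with a mean r of 0.13 (0.013 to 0.234, 4 pairs), against -0.03 for the 16 other pairs. Of the 4 *Supt6*-KO mice, 1 correlated best with its own number. With 4 pairs these values cannot decide whether the numbers pair the mice. With the replicate block 5800 genes were lower and 5251 higher, and the paired log2 ratios were 0.77 for *Lrp6* to *Lrp5*, 0.50 for *Fzd5* to *Fzd8*, -0.51 for *Fzd2* to *Fzd7* and 0.68 for *Fzd1* to *Fzd2*, each with an exact p of 0.125, the smallest that 4 pairs allow. The Frizzled shares over 10 genes were added after seeing the data. The causes were not tested.
The main limits are 5 and 4 mice, whole tissue, and fold changes that depend on transcript length and on the scaling between libraries. The controls had neither Cre nor tamoxifen.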
